A study of Rattus norvegicus with 14 samples.

Results

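Rat aortic smooth muscle cells that had been given platelet-derived growth factor (PDGF) for 24 h were compared with the same kind of cells after 2 h of PDGF. All libraries labelled with these groups were taken, 3 at 24 h and 3 at 2 h, which is 6 of the 14 libraries of the series. Every gene of the expression table entered (17312 genes), and the 92 synthetic ERCC spike-in transcripts were left out of the tests. The comparison sets the late transcript levels of the PDGF response against the early ones.

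The cells came from a commercial supplier, were grown in serum and were then kept in serum-free medium for 24 h. The 2 h and 24 h groups received PDGF at 925 ng/ml, as the labels state it, and no other agent is named for them. The other libraries were 2 of unstimulated cells (0 h) and 3 each of cells given 500 nM JQ1, an inhibitor of BET bromodomain proteins, for 3 h before the same PDGF for 2 h or 24 h. Unstimulated cells kept for 2 h or 24 h were not analysed here, so longer PDGF and longer time without serum cannot be told apart. The labels do not say whether replicates were separate cultures, so the p-values rest on the spread between these samples alone, and that spread may be technical. In bulk RNA, fewer cells of a type and less RNA per cell cannot be told apart either.

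PDGF binds receptor tyrosine kinases on smooth muscle cells and activates ERK signalling. The first genes to respond, the immediate early genes, encode transcription factors such as FOS, EGR and NR4A proteins, and their transcripts are short-lived. Over a longer time PDGF is known to shift aortic smooth muscle cells from a contractile state, with much smooth muscle actin, calponin and transgelin, towards a state that moves, divides and makes matrix. The contractile genes are controlled by serum response factor (SRF), which binds a sequence called the CArG box, together with its coactivator myocardin. The same factor, with other partners, also controls many immediate early genes.

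Levels are the authors' normalised FPKM (fragments scaled for transcript length and for library size, here on a spike-in scale), given for libraries 0, 1 and 2 of a group in that order. Differences are log2 of the level plus 1, 24 h minus 2 h, with the standard error (SE) of the limma fit, and a gene was called at a Benjamini-Hochberg adjusted p under 0.05 over all 10133 tested genes. Because of the added 1, differences of genes with low levels are understated. A second scale, median-centred, divides the unnormalised FPKM by 1 size factor per library taken from the genes.

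Of the 10133 tested genes, 4510 were called higher at 24 h than at 2 h (44.5%) and 1193 lower (11.8%). The median log2 difference of all tested genes was 0.39 on the spike-in scale and 0.06 on the median-centred scale, so the split depended on the scale: with centring 2726 genes were higher (27.3% of 9991) and 2543 lower (25.5%). The counts of the gene lists below are to be read beside these shares of all tested genes. No gene was called in opposite directions on the 2 scales. On both, 2713 genes were higher and 1187 lower among 9964 genes tested on both. A further 1767 genes were higher on the spike-in scale and not called after centring, and 1355 were not called on the spike-in scale and lower after centring. The 3 libraries at 24 h all lay above the 3 at 2 h in 4733 genes (46.7%) and all below them in 1303 (12.9%). With a log2 difference of at least 1 as well, 1789 genes were higher (17.7%) and 526 lower (5.19%), so the called genes that moved at least that far were 39.7% of the higher and 44.1% of the lower genes.

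Spike-ins took up 2.28, 2.14 and 1.82% of the unnormalised FPKM in the 2 h libraries and 1.65, 1.86 and 1.88% in the 24 h libraries, and these ranges overlapped. FPKM carry no read counts, so the depth is unknown; between 9901 and 11503 genes were above 0 in a library. The authors' curve moved low values up by 1.04 (log2) against -0.02 for high values in PDGF 2 h library 1, the library with the fewest genes above 0, and by 0.95 against 0.42 in PDGF 24 h library 0. Without these 2 libraries 4137 genes were higher (41.6%) and 1010 lower (10.2%). Replicates correlated across genes, which are not independent replicates, at a Spearman's rho of 0.945 to 0.982 at 2 h and 0.975 to 0.989 at 24 h.

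**Figure D1:**
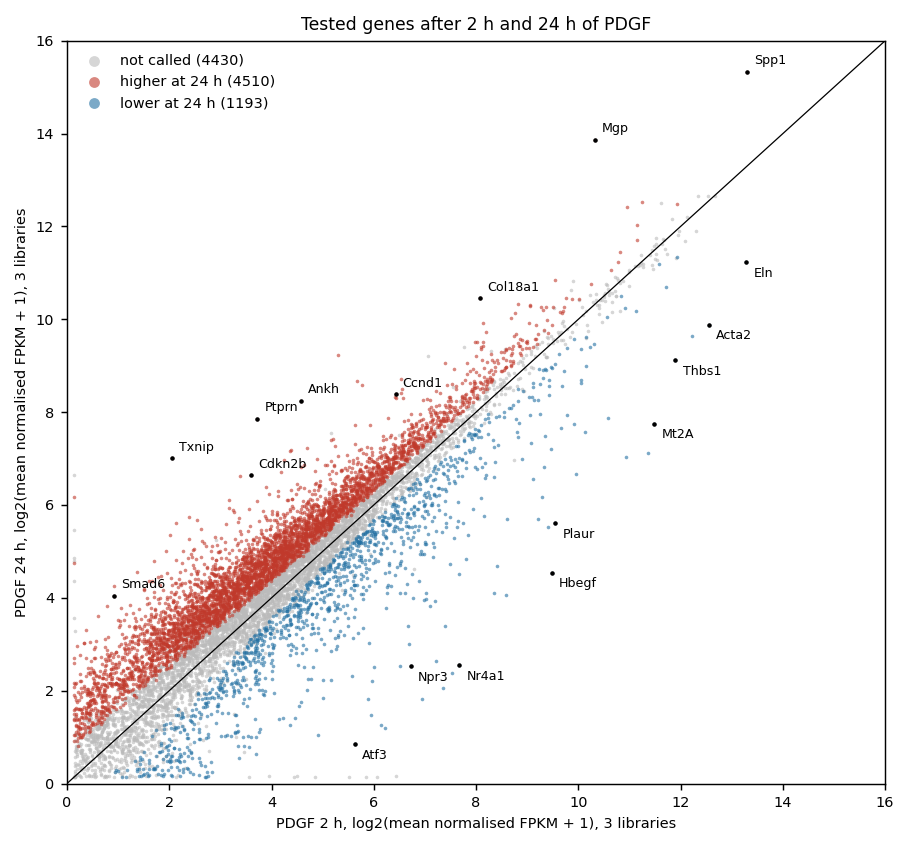
Each point is 1 of the 10133 tested genes, with log2 of the mean normalised FPKM plus 1 over the 3 PDGF 2 h libraries on the x axis and over the 3 PDGF 24 h libraries on the y axis; red genes were called higher at 24 h (4510), blue genes lower (1193), grey genes were not called (4430), and the line marks equal levels. Most red points form a band just above the line, while Hbegf, Atf3 and Npr3 lie far below it and Txnip, Ptprn and Mgp far above it.

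The most abundant transcripts changed places. Ranks are by the group mean of the unnormalised FPKM and leave out genes whose symbols start with Mir, Snor or Rn. The shares are of the FPKM of all genes, with those included. Spp1, which encodes the secreted phosphoprotein osteopontin, held the top rank at both times and took up 1.45, 1.48 and 1.37% of the unnormalised gene FPKM at 2 h and 5.16, 5.27 and 5.31% at 24 h. Mgp, the gene of matrix Gla protein, an inhibitor of vessel calcification, moved from rank 88 to rank 2, with 0.179, 0.193 and 0.183% at 2 h and 1.93, 1.88 and 1.91% at 24 h. Eln, the elastin gene, went from rank 2 to rank 34 (1.45, 1.39 and 1.43% against 0.291, 0.317 and 0.311%). These shares use no spike-in, and in each of these genes the 3 libraries at one time lay apart from the 3 at the other. Acta2, the smooth muscle actin gene, went from rank 4 to rank 116, and Col1a1, a chain of type I collagen, from rank 38 to rank 6.

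The genes that fell furthest were mostly genes of the early growth factor response. Of 29 tested immediate early transcription factor genes, 25 fell and 2 rose (27 and 2 on the median-centred scale), with a median difference of -1.99 against 0.39 for all tested genes. Nr4a3, an orphan nuclear receptor gene, stood at 142, 167 and 179 normalised FPKM at 2 h and at 4.1, 2.18 and 3.2 at 24 h, a difference of -5.32 ± 0.19 (limma, adjusted p = 2.61e-11). Its relative Nr4a1 was at 187, 211 and 211 and then at 6.52, 3.71 and 4.28 (-5.16 ± 0.18). Nr4a1 was back near its unstimulated values of 4.21 and 3.55. Nr4a3 came close to its unstimulated 1.71 and 1.33, but every 24 h library lay above both. Atf3, which encodes a stress-inducible bZIP factor, went from 51.3, 50 and 44.8 to 0.965, 0.492 and 0.921 (-4.80 ± 0.16), also close to its unstimulated values of 0.739 and 0.887. The AP-1 subunit gene Fosb (-5.03 ± 0.20) and the zinc finger factor gene Egr3 (-4.90 ± 0.30) fell as far.

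Several other immediate early genes fell but were also still above the unstimulated level at 24 h. Egr1, a zinc finger factor gene, was at 337, 367 and 465 at 2 h and 52.8, 42.6 and 57 at 24 h (-2.91 ± 0.15), against 14.6 and 14.8 at 0 h. Fosl1, which encodes the AP-1 subunit FRA-1, went from 179, 226 and 259 to 28.9, 22.1 and 31.4 (-2.96 ± 0.23), against 5.36 and 1.96 at 0 h. In both genes every 24 h library lay above both unstimulated ones. Klf4, a factor known to repress contractile genes, fell by 1.40 on the log2 scale, Fos by 0.74 and Srf by 0.57, and their 24 h libraries too lay above both unstimulated ones. Myc, which drives growth, fell by 1.37 to 40.8, 39.4 and 34.9 and ended below its unstimulated 50 and 63.8.

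The 2 genes of the list that rose were Jun and Klf2. Jun, the partner of FOS proteins in AP-1, stood at 31.2, 33.1 and 40.1 at 2 h and at 59.9, 56.3 and 56.8 at 24 h, a rise of 0.72 ± 0.13 (adjusted p = 0.00023), and its unstimulated values were 11.6 and 10.2. Klf2 rose by 1.05 ± 0.17. Nab2, which encodes a corepressor of EGR proteins, and Jund were not called (-0.07 and 0.02), and both were lower after centring (-0.45 and -0.36).

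Genes of the ERK feedback system, which encode phosphatases and adaptors that switch the pathway off, mostly fell as well. Of 15 tested, 10 fell and 1 rose (12 and 1 centred), with a median of -0.96. Dusp5, a nuclear ERK phosphatase gene, was at 121, 154 and 171 at 2 h and at 4.77, 5.05 and 5.93 at 24 h (-4.57 ± 0.22, adjusted p = 4.09e-10). Dusp6, whose product acts on ERK in the cytoplasm, went from 60.4, 60.2 and 73.3 to 29.1, 30.7 and 42.2 (-0.92 ± 0.15) and was still above its unstimulated 7.82 and 7.04. Spred3, a gene of the SPRED adaptor family, rose from 3.99, 5.6 and 6.85 to 16.2, 12.9 and 12.6 (1.22 ± 0.21).

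Genes of EGF receptor ligands, which activated cells release, fell in part. Hbegf, the gene of heparin-binding EGF-like growth factor, stood at 619, 712 and 812 at 2 h and at 21.3, 20.4 and 25.4 at 24 h, a difference of -4.93 ± 0.13 (adjusted p = 9.33e-13). The 24 h libraries lay below the unstimulated ones too, which were at 53.5 and 56. Areg, the amphiregulin gene, fell from 8.25, 10.6 and 11.4 to 0.492, 1.29 and 0.502 (-2.67 ± 0.26), and Ereg, the epiregulin gene, by 2.48. Errfi1, which encodes an inhibitor of the receptor, fell by 3.26. The other 4 of the 8 tested genes, among them those of the receptors EGFR and ERBB2, were not called.

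**Figure D2:**
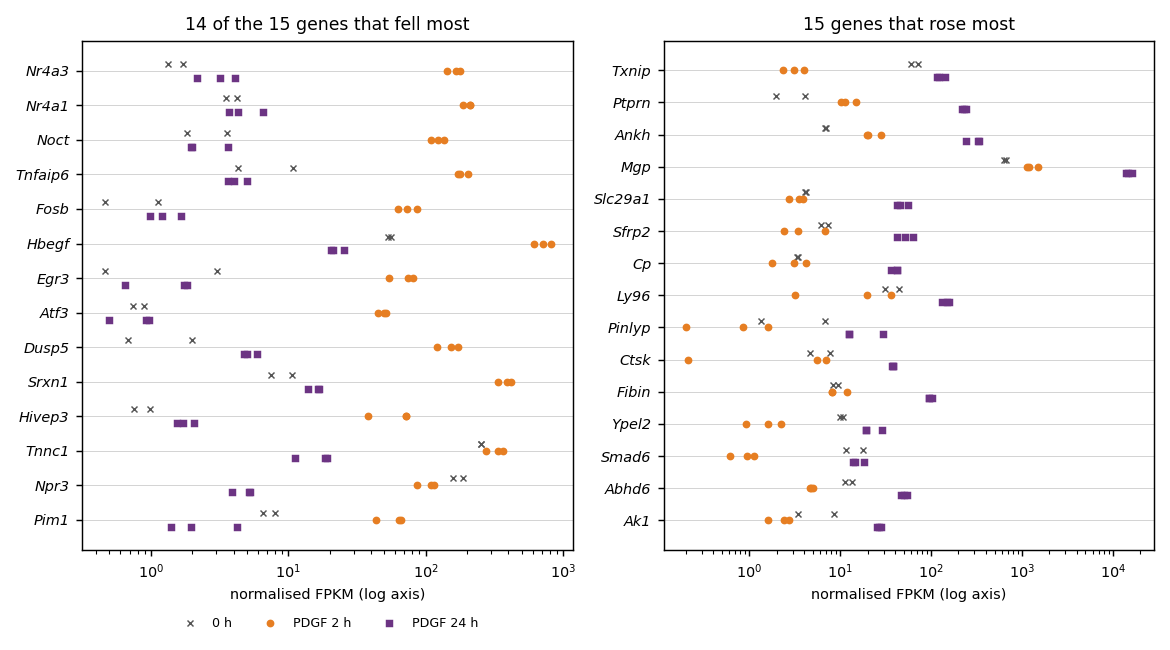
Normalised FPKM on a log axis for 14 of the 15 genes that fell most (left) and the 15 that rose most (right) among called genes with separate ranges that kept their call after centring; crosses are the 2 unstimulated libraries, circles the 3 PDGF 2 h libraries and squares the 3 PDGF 24 h libraries. Nr4a3, Nr4a1 and Atf3 returned close to the crosses at 24 h, Hbegf, Tnnc1 and Npr3 ended below them, and Txnip and Smad6 were below them at 2 h only.

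RefSeq promoter sequences (build GRCr8, the 250 bases before the annotated start) were matched by symbol to 7412 of the 10133 tested genes. Of the 30 genes that moved most among those that met the rule for top genes, 18 were matched, 9 that fell and 9 that rose. They were searched on both strands for the CArG box, for the AP-1 site TGACTCA and for the E-box CACGTG. The cyclic AMP response element was searched in the same way, as its core TGACG and as the full TGACGTCA. A CArG box was found in 1.79% of the promoters of genes called lower, 0.906% of those called higher, 1.12% of those of all 7412 tested genes and 1.51% of all 24206 promoters. The AP-1 site was in 4.91, 3.11, 3.04 and 3.97% in the same order. TGACG was in 33.1, 29, 30.4 and 19.3% and CACGTG in 7.81, 9.18, 8.42 and 5.86%, so for both motifs the called genes lay closer to all tested genes than to all promoters. The full TGACGTCA was in 4.91, 2.51, 3.18 and 1.72%. Among the 9 genes that fell most and had an entry, 1 held a CArG box, 2 held TGACTCA, 4 held TGACG and none held the full TGACGTCA or CACGTG. Among the 9 that rose most, 1 held TGACG and none of these 9 held any of the other motifs. The following 120 bases next to the start are shown because they belong to 3 of the genes that fell most, Dusp5, Srxn1 and Nr4a1, and to Srf, the gene of the factor that binds the CArG box; capitals mark the matches, CArG boxes in Dusp5 and Srf, the reverse complement of TGACTCA in Srxn1 and the reverse complement of TGACG in Nr4a1.
Dusp5 (chr1:262543654-262543773, plus strand): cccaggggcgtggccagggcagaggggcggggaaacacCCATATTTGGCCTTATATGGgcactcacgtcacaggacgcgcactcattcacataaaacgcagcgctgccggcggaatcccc
Srf (chr9:21923956-21924075, plus strand): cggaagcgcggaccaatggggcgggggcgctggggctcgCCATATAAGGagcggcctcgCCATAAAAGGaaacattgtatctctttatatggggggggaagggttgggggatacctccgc
Srxn1 (chr3:161064692-161064811, plus strand): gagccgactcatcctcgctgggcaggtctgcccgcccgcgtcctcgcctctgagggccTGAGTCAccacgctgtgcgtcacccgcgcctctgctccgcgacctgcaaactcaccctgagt
Nr4a1 (chr7:134260018-134260137, plus strand): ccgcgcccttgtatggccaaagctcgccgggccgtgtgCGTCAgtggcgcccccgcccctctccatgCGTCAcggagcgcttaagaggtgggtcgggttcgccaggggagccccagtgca

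The 2 CArG boxes of Dusp5 adjoin each other, the nearer starting 72 bases before the start, and the match in Srxn1 starts 62 bases before it. A match describes these letters only, and binding was not measured here. Dusp5 and Srf, which share the motif, fell by 4.57 and 0.57. Srxn1, which encodes sulfiredoxin, an enzyme that restores oxidised peroxiredoxins, stood at 335, 388 and 420 at 2 h and at 16.8, 13.9 and 16.5 at 24 h (-4.51 ± 0.14).

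Cytokine and chemokine genes that were called mostly fell. Of 14 tested cytokine and chemokine genes, 10 fell and 1 rose (10 and 1 centred), with a median of -1.11. Tnfaip6, which encodes a hyaluronan-binding protein of inflamed tissue, went from 179, 202 and 172 to 4.99, 3.63 and 4.04 (-5.15 ± 0.24), and Lif, an IL-6 family cytokine gene, from 79.8, 114 and 113 to 5.52, 7.1 and 8.62 (-3.67 ± 0.30). The monocyte chemokine gene Ccl2 moved less, from 205, 192 and 195 to 96.4, 89.1 and 130 (-0.92 ± 0.18), against 1.94 and 2.19 at 0 h. Ccl7 was at 412, 455 and 404 and then at 261, 246 and 342 (-0.59 ± 0.18, adjusted p = 0.00995), and without the 2 libraries named above the fall was 0.49 on the log2 scale and no longer passed (adjusted p = 0.0827). Both chemokines thus stayed far above their unstimulated values in every 24 h library. Il6 was at 5.65, 11.4 and 4.26 at 2 h and 9.14, 6.21 and 5.42 at 24 h, with no call (0.04 ± 0.32). The gene that rose was Cxcl16, a transmembrane chemokine gene (1.10 ± 0.19).

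The 2 cyclooxygenase genes moved in opposite directions. Ptgs2, the inducible form, went from 107, 146 and 136 to 13.6, 14.2 and 21.1 (-2.93 ± 0.20), while Ptgs1, the constitutive form, went from 0.462, 0.436 and 0.524 to 8.71, 6.7 and 6.65 (2.49 ± 0.21, adjusted p = 2.27e-07). Its unstimulated values were 0.445 and 0.284, so it was raised in the 24 h libraries and in neither earlier group. The prostaglandin transporter gene Slco2a1 rose beside it, from 2.67, 2.09 and 4.46 to 16.7, 16.5 and 15.9 (2.14 ± 0.23). Of the 9 tested prostaglandin genes, 5 rose and 2 fell, against 3 and 3 after centring. Among 12 NF-kappaB and adhesion genes, 4 fell and 1 rose, with Icam1, a leukocyte adhesion receptor gene, lower by -1.38 ± 0.15.

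The urokinase receptor gene and genes of the matricellular proteins that wounds deposit early also came down. Plaur, the urokinase receptor gene, went from 679, 695 and 875 to 52, 40.5 and 50.3 (-3.95 ± 0.13). Thbs1, the thrombospondin 1 gene, went from 2880, 3500 and 5040 to 553, 508 and 606 (-2.74 ± 0.19). In both genes the lowest 2 h library was more than the highest 24 h library. Tnc, the tenascin C gene, fell by 2.39 on the log2 scale. Of the 22 tested protease and inhibitor genes, 8 rose and 6 fell (6 and 9 centred). Mmp16, a membrane-bound matrix metalloproteinase gene, rose from 10.8, 17 and 13.4 to 81.4, 77.6 and 90 (2.53 ± 0.16), and Serpine2, which encodes protease nexin 1, from 24.7, 21.1 and 25.9 to 121, 107 and 115 (2.22 ± 0.13). Timp1, a metalloproteinase inhibitor gene, was not called (-0.19 ± 0.12), but it was lower after centring (-0.56). Mmp3 and Mmp13 did not pass the filter on low values.

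**Figure D3:**
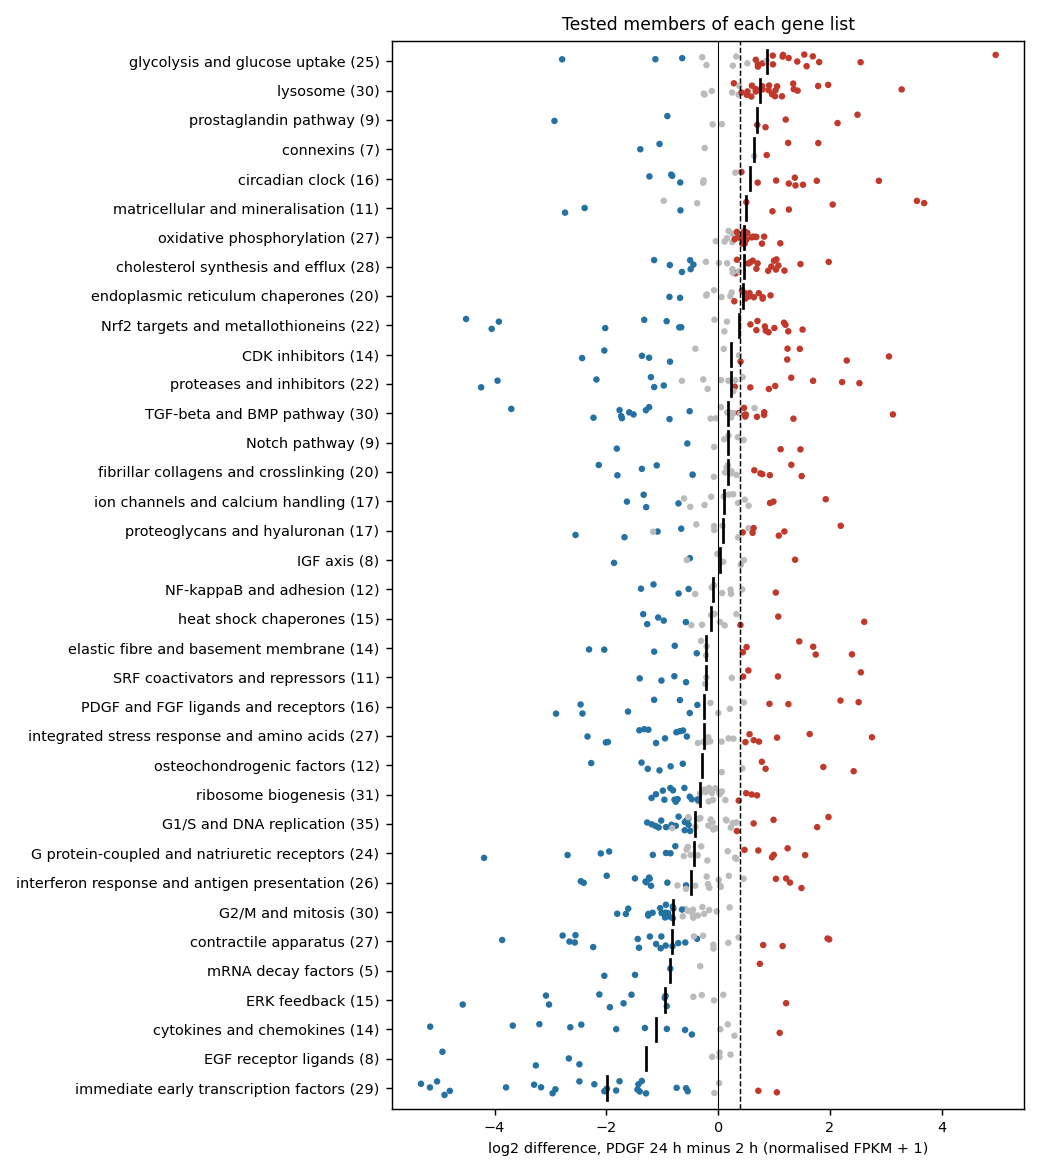
Each point is a tested gene of the gene list named on the y axis, with the number tested in brackets, and the x axis is its log2 difference, 24 h minus 2 h; red points were called higher, blue lower and grey not called, short bars mark each list's median, and the dashed line marks the median of all tested genes (0.39). Lists of cell type markers are not drawn. The drawn medians run from 0.87 for glycolysis to -1.99 for immediate early transcription factors, and most lists hold both red and blue points.

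Contractile genes that were called mostly fell between 2 h and 24 h. Of 27 tested genes of the contractile apparatus, 17 fell, 4 rose and 6 were not called (19 fell and 3 rose centred), with a median of -0.82. Cnn1, the calponin gene, stood at 588, 641 and 797 at 2 h and at 45.8, 47.1 and 42.4 at 24 h, a difference of -3.87 ± 0.17 (adjusted p = 2.19e-10). Acta2 went from 5730, 5260 and 7050 to 967, 1020 and 850 (-2.66 ± 0.16), and Tagln, the transgelin gene, from 4640, 4100 and 5570 to 797, 829 and 771 (-2.57 ± 0.15). The 2 h libraries were near or above the unstimulated ones (4810 and 5690 for Acta2), so for these genes the fall came after 2 h. Tnnc1, which encodes slow troponin C, fell from 338, 363 and 275 to 11.2, 19.1 and 18.6 (-4.27 ± 0.25), against 252 and 253 at 0 h.

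Myh11, which encodes the myosin heavy chain of smooth muscle, was low throughout, at 3.68, 6.52 and 4.81 at 2 h and 2.37, 1.96 and 1.41 at 24 h (-1.03 ± 0.23), as was the myocardin gene Myocd at 3.08, 6.63 and 3.28 and then 2.3, 1.41 and 1.03 (-1.01 ± 0.27). At such levels the log2 scale with a pseudocount of 1 compresses the change. The cells thus carried actin, transgelin and calponin transcripts in large amounts, with little of the myosin and coactivator that define mature smooth muscle, and this was already so at 0 h (5.12 and 5.61 for Myh11).

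The 4 genes that rose were Itga7, Itga8, Sgca and Des, none of which encodes a part of the thin or thick filament. Itga7, an integrin subunit gene of muscle that binds laminin, rose from 78.7, 90.1 and 110 to 372, 343 and 367 (1.96 ± 0.14, adjusted p = 4.75e-08), against 43.1 and 51.3 at 0 h. Itga8, another integrin gene, rose by 1.15 ± 0.14 and Sgca, a sarcoglycan gene, by 1.99 ± 0.36. Des, the desmin gene, was at 0.346, 0.174 and 0.714 and then at 2.48, 1.16 and 0.922 (0.81 ± 0.31), a call that was lost without the 2 libraries named above (0.42, adjusted p = 0.262).

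Among SRF coactivators and repressors 4 rose and 4 fell of 11 tested (2 and 6 centred). The largest difference of these was that of Prrx1, a homeobox factor gene of mesenchymal cells, which went from 17.9, 28 and 28.7 to 161, 127 and 157 (2.55 ± 0.17). Of 17 ion channel and calcium handling genes, 3 rose and 4 fell. Pln, the phospholamban gene, fell by 1.63, while Ryr2, a calcium release channel gene, went from 0.367, 1.86 and 0.618 to 7.48, 5.82 and 5 (1.93 ± 0.27). Of 24 receptor and RGS genes, 6 rose and 8 fell (3 and 9 centred). Npr3, the clearance receptor gene of natriuretic peptides, went from 86.9, 116 and 110 to 5.25, 5.17 and 3.88 (-4.19 ± 0.15), and since its unstimulated values were 158 and 186, it was lower at each later time. Rgs2, which encodes an inhibitor of G protein signalling, was at 1390, 1310 and 1920 and then at 201, 229 and 275 (-2.69 ± 0.16), against 35.6 and 26.1 at 0 h.

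The matrix genes did not move as 1 group. Eln was at 9350, 8550 and 12000 at 2 h and at 2430, 2380 and 2380 at 24 h (-2.04 ± 0.18), while Col1a1 went from 2120, 2120 and 3060 to 6210, 5820 and 5800 (1.31 ± 0.16). Lox, which encodes the enzyme that crosslinks both elastin and collagen, fell from 258, 328 and 397 to 147, 151 and 153 (-1.10 ± 0.16). Col3a1, a fibrillar collagen gene found beside Col1a1 in vessels, rose from 626, 676 and 885 to 1190, 1340 and 1130 (0.76 ± 0.13). Over the whole lists, 6 of 20 genes of fibrillar collagens and crosslinking rose and 5 fell (6 and 9 centred), and 6 of 14 genes of elastic fibres and basement membrane rose and 5 fell (4 and 7 centred). P4ha3, a collagen prolyl hydroxylase gene, fell by 2.14 and Col11a1, a minor fibrillar collagen gene, by 1.80.

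In the basement membrane Col18a1, whose product carries the endostatin fragment, rose from 219, 260 and 332 to 1470, 1320 and 1430 (2.39 ± 0.14, adjusted p = 4.25e-09). The proteoglycan gene Vcan, which encodes versican, rose from 15, 18.7 and 15.4 to 78.7, 75 and 80.9 (2.19 ± 0.15). Both had 24 h libraries several times the highest 2 h library. Of 17 tested proteoglycan and hyaluronan genes, 6 rose and 4 fell (4 and 5 centred). Fn1, the fibronectin gene, was at 2270, 2700 and 3690 and then at 2570, 2420 and 2600, with no call (-0.16 ± 0.21), but lower after centring (-0.53, adjusted p = 0.00152).

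Some genes that act on mineral in the vessel wall were among the largest rises. Mgp stood at 1140, 1210 and 1490 at 2 h and at 16300, 14100 and 14600 at 24 h, a difference of 3.56 ± 0.13 (adjusted p = 2.85e-11). Ankh, which encodes an exporter of the mineralisation inhibitor pyrophosphate, rose from 19.8, 20 and 28.3 to 336, 244 and 330 (3.69 ± 0.16). Spp1 rose from 9420, 8910 and 11800 to 44100, 39600 and 40200 (2.05 ± 0.18). For all 3 the unstimulated libraries were below the 2 h libraries (676 and 641 for Mgp, 6.91 and 6.86 for Ankh, 5520 and 6850 for Spp1). Postn, the periostin gene, rose by 1.26 ± 0.12. The list of matricellular and mineralisation genes counted 6 higher and 3 lower of 11 tested (5 and 4 centred). Among the lower was Tnfrsf11b, the osteoprotegerin gene, which went from 151, 166 and 203 to 97.9, 113 and 112 (-0.675 ± 0.114). Of 12 osteochondrogenic factor genes, 4 rose and 6 fell (2 and 6 centred). Sox9, the master factor gene of cartilage, was at 126, 144 and 156 and then at 25.7, 27.2 and 33 (-2.27 ± 0.14), while Sox4 went from 4.99, 7.73 and 4.14 to 31.7, 35.8 and 33.6 (2.42 ± 0.17), level with its 32 and 30 at 0 h. Runx2, a bone factor gene, was higher by 0.85 ± 0.30 (adjusted p = 0.0269) and not called after centring.

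The receptors of PDGF itself were higher at 24 h. Pdgfrb was at 324 and 383 in unstimulated cells, at 190, 233 and 253 at 2 h and at 550, 524 and 534 at 24 h (1.26 ± 0.13). Pdgfra followed the same course at a lower level, from 9.22 and 9.7 through 3.19, 5.73 and 4.83 to 21.8, 25 and 25.3 (2.19 ± 0.20). In both the 2 h libraries were the lowest and the 24 h libraries the highest, with no overlap between the times. Of the ligand genes, Pdgfb fell from 40.5, 52.9 and 69.9 to 11, 7.91 and 8.5 (-2.43 ± 0.21), and Pdgfc rose from 5.44, 0.201 and 4.41 to 18.8, 19.4 and 18.4 (2.51 ± 0.47), the lowest value being that of PDGF 2 h library 1. Fgf18, a fibroblast growth factor gene, fell from 24.9, 14.5 and 35.3 to 0.194, 4.82 and 4.03 (-2.90 ± 0.51), and Fgfr3, a receptor gene of that family, from 40, 48.5 and 54.2 to 8.54, 6.81 and 7.98 (-2.46 ± 0.14). In all, 4 of 16 tested genes of PDGF and FGF signalling rose and 8 fell (4 and 9 centred).

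In the TGF-beta and BMP pathway the split depended on the scale: 10 of 30 genes rose and 11 fell on the spike-in scale, 2 rose and 13 fell after centring, and 6 rose and 11 fell without PDGF 2 h library 1 and PDGF 24 h library 0. Fst, which encodes the activin trap follistatin, went from 289, 286 and 440 to 19.2, 26.1 and 29.5 (-3.70 ± 0.25), and Bmp2, a ligand gene, from 9.24, 7.4 and 7.95 to 1.79, 0.433 and 0.86 (-2.23 ± 0.24). Smad6, an inhibitor of BMP signalling, had its lowest values at 2 h: it was at 11.7 and 17.9 at 0 h, at 0.947, 0.618 and 1.12 at 2 h and at 18.1, 14.6 and 14 at 24 h (3.13 ± 0.25). Id1, a BMP target gene, was not called (0.65 ± 0.39). Among 9 Notch genes 2 rose and 2 fell (2 and 3 centred). The ligand gene Jag1 was at 60.6 and 64.9 at 0 h, at 8.97, 8.42 and 10.2 at 2 h and at 27.4, 28.9 and 25.4 at 24 h (1.47 ± 0.14), still below 0 h. The receptor gene Notch1 took the other course, with 25.7, 36.1 and 40.6 at 2 h and 9.38, 8.03 and 9.11 at 24 h (-1.81 ± 0.18). Of 7 connexin genes, 3 rose and 2 fell. Gja4, which encodes connexin 37, rose from 30.6, 37.9 and 35.8 to 133, 119 and 116 (1.79 ± 0.15), and Gja1, which encodes connexin 43, fell by 1.05.

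Cell cycle genes did not share a direction. Ccnd1, the cyclin D1 gene, which acts in early G1, was at 77.8, 78.2 and 98.6 at 2 h and at 328, 305 and 375 at 24 h (1.97 ± 0.12, adjusted p = 4.96e-09), and Ccnd2 rose by 1.77 ± 0.28. Of 35 tested G1/S and DNA replication genes, 5 rose and 15 fell (3 and 20 centred), with a median of -0.41. Rrm2, a ribonucleotide reductase gene, fell from 38.4, 44.2 and 43.7 to 19, 15.4 and 16.3 (-1.27 ± 0.24), but Tyms, the thymidylate synthase gene, rose by 0.99 ± 0.17. In the G2/M and mitosis list, 17 of 30 genes fell and none of the 30 rose (28 and 0 centred), with a median of -0.81. Ccna2, the cyclin A gene, was at 26.6, 41.5 and 22.3 at 2 h and 6.88, 7.92 and 8.07 at 24 h (-1.81 ± 0.20), against 31.4 and 29.4 at 0 h.

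Of the 14 genes of CDK inhibitors and growth arrest, 6 rose and 5 fell (5 and 6 centred). The largest rises were those of the neighbouring genes Cdkn2b and Cdkn2a, which encode INK4 inhibitors of the kinases that cyclin D activates. The levels are per gene and do not separate the INK4 transcript of Cdkn2a from other transcripts of that gene. Cdkn2b went from 11.1, 11.5 and 10.5 to 100, 93.9 and 104 (3.06 ± 0.14, adjusted p = 2.17e-10), and Cdkn2a from 13.4, 11.5 and 18.6 to 86, 67.9 and 69.2 (2.30 ± 0.19). The 24 h libraries of both were also far above the unstimulated ones (7.91 and 8.01 for Cdkn2b, 13.4 and 16.1 for Cdkn2a). The gene of p27, Cdkn1b, was at 40.5 and 43.5 at 0 h, 13.1, 14 and 13.8 at 2 h and 30.5, 37.9 and 32.7 at 24 h (1.24 ± 0.14). Cdkn1a, the gene of p21, was not called (0.10 ± 0.13), but lower after centring (-0.27).

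Ribosome biogenesis genes, which code for the factors that process ribosomal RNA, were lower at 24 h in 14 of 31 cases and higher in 4 (26 and 1 centred), with a median of -0.33. Nop58, a core protein gene of small nucleolar particles, went from 147, 175 and 186 to 85.4, 66.2 and 81.9 (-1.11 ± 0.13), level with its 68.2 and 75.2 at 0 h. Of 27 genes of the integrated stress response and amino acid supply, 12 fell and 7 rose (17 and 4 centred). Chac1, which encodes an enzyme that degrades glutathione, fell from 94.1, 86.2 and 117 to 19.9, 17.4 and 18.7 (-2.34 ± 0.14), and the amino acid transporter gene Slc7a5 from 124, 138 and 164 to 34, 33.3 and 38.6 (-1.97 ± 0.14). Ddit4, which encodes an inhibitor of the growth kinase mTORC1, went the other way, from 7.79, 8.67 and 7.65 to 70.6, 52.5 and 57.7 (2.75 ± 0.15). Of 20 chaperone genes of the endoplasmic reticulum, 12 rose and 2 fell (6 and 5 centred). Their median of 0.45 was close to the 0.39 of all tested genes. Of 15 heat shock chaperone genes, 3 rose and 5 fell (2 and 10 centred).

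Genes of the glycolysis and glucose uptake list were mostly higher. Of 25 tested, 16 rose and 3 fell (14 and 4 centred), with a median of 0.87. Not all that rose encode parts of the pathway: Txnip, whose product inhibits glucose uptake, and its relative Arrdc4 are counted among the 16 and described below. Slc16a3, a lactate exporter gene, went from 3.79, 5.35 and 4.58 to 40.5, 23.6 and 32.3 (2.55 ± 0.24), and Ldha, a lactate dehydrogenase gene, from 411, 437 and 508 to 758, 658 and 742 (0.67 ± 0.11). Hk2, the gene of the inducible hexokinase at the entry of the pathway, fell from 161, 184 and 193 to 21.1, 23.7 and 31.2 (-2.79 ± 0.15), and the glucose transporter gene Slc2a1 fell by 0.64. The third gene that fell was Slc16a1, which encodes another lactate transporter, from 21.4, 29.7 and 29.2 to 11.7, 10.8 and 12.3 (-1.12 ± 0.15), so the 2 lactate transporter genes of the list moved in opposite directions. Several glycolysis genes have near-identical pseudogene copies, and whether the authors' counting divided such reads between copies is not given here.

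The gene that rose most of all that met the rule for top genes was Txnip, which encodes an inhibitor of thioredoxin and of glucose uptake. It was at 60.4 and 72.3 at 0 h, at 2.37, 3.99 and 3.09 at 2 h and at 144, 122 and 116 at 24 h, a difference of 4.97 ± 0.16 (adjusted p = 9.17e-12). Its relative Arrdc4, an arrestin domain gene, was at 0.326, 0.175 and 0.0981 at 2 h and 6.44, 3.01 and 1.46 at 24 h (1.81 ± 0.37). The promoter of Arrdc4 holds the E-box CACGTG, shown here because this motif is known in the promoters of glucose-responsive genes; capitals mark it.
Arrdc4 (chr1:131793556-131793675, minus strand): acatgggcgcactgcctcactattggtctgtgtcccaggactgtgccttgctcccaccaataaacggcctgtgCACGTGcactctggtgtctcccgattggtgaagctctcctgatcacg

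Lysosome genes were higher in most cases. Of 30 tested, 24 rose and none of the 30 fell on the spike-in scale, against 19 higher and 3 lower after centring, with a median of 0.74. Ctsl, the cathepsin L gene, rose from 253, 269 and 323 to 999, 919 and 995 (1.79 ± 0.12, adjusted p = 2.31e-08), and Lipa, the gene of lysosomal acid lipase, from 18.9, 24.4 and 21.3 to 91.6, 78.2 and 91.2 (1.97 ± 0.13). Ctsk, the gene of the collagen-degrading cathepsin K, was at 6.96, 0.213 and 5.52 at 2 h and at 38.3, 36.8 and 38.2 at 24 h (3.28 ± 0.48), with its lowest value in PDGF 2 h library 1. Of 27 oxidative phosphorylation genes, 21 rose and none of the 27 fell, but only 4 were higher and 3 lower after centring, and 13 were higher without PDGF 2 h library 1 and PDGF 24 h library 0. Their median of 0.47 was close to the 0.39 of all tested genes.

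In cholesterol metabolism 16 of 28 genes rose and 6 fell (10 and 8 centred), with a median of 0.45 against 0.39 for all tested genes. Idi1, a sterol-regulated gene that encodes an enzyme of the synthesis pathway, went from 124, 133 and 125 to 57.8, 51.9 and 61.7 (-1.15 ± 0.10). Hmgcs1, another synthesis gene, was not called (0.26 ± 0.11, adjusted p = 0.0505). Abca1, which encodes the exporter of cholesterol to apolipoproteins, was at 7.2 and 8.62 at 0 h, at 1.54, 2.66 and 2.14 at 2 h and at 11, 10.9 and 11.5 at 24 h (1.98 ± 0.20).

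Genes of metal and oxidant defence fell steeply in part. Mt2A and Mt1a encode metallothioneins, small proteins that bind zinc and copper. Mt2A went from 2710, 2580 and 3290 to 82.7, 304 and 256 (-3.92 ± 0.34), and Mt1a from 1750, 1790 and 2310 to 53.7, 169 and 169 (-4.05 ± 0.36). In both genes PDGF 24 h library 0 was the lowest of the 3 at 24 h. The 2 genes are similar in sequence, and the values are uncertain because reads could have been shared between them or with further copies. Hmox1, the heme oxygenase gene, fell from 246, 238 and 247 to 64.4, 57.9 and 56 (-2.02 ± 0.10). Other targets of the transcription factor NRF2 rose, among them Gsr, the glutathione reductase gene, from 18.1, 17.8 and 19.1 to 59.9, 49.3 and 53.5 (1.51 ± 0.13), and Nqo1, a quinone reductase gene, by 1.21 ± 0.15. Of the 22 tested genes of this list, 11 rose and 8 fell (10 and 11 centred).

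Interferon response genes that were called mostly fell. Of 26 tested, 11 fell and 4 rose (16 and 3 centred), with a median of -0.49. Irf7, a factor gene that amplifies the interferon response, was at 3.95 and 1.76 at 0 h, at 45.5, 60.6 and 46.8 at 2 h and at 10.2, 6.49 and 8.8 at 24 h (-2.46 ± 0.22). Usp18, which encodes a brake on the interferon receptor, went from 26.5, 27.8 and 26.9 to 7.64, 2.66 and 3.69 (-2.41 ± 0.25). The 4 that rose were Irf1 and the 3 membrane protein genes Ifitm1, Ifitm2 and Ifitm3, which resemble each other in sequence and may share reads. Ifitm3 was at 484, 521 and 586 and then at 1480, 1100 and 1150 (1.22 ± 0.14).

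Clock genes also differed between the times. Of 16 tested, 9 rose and 4 fell (7 and 6 centred), with a median of 0.56. Dbp, a PAR-domain factor gene under direct clock control, was at 17.9 and 18.2 at 0 h, at 4.82, 6.31 and 4.3 at 2 h and at 43.1, 47.8 and 40.5 at 24 h (2.88 ± 0.18, adjusted p = 6.43e-09). Its relative Tef rose by 1.52 ± 0.17. Genes known to peak in the opposite phase did not share a direction. Arntl, which encodes the activator BMAL1, fell from 18.6, 15.3 and 19.2 to 8.27, 9.53 and 10.9 (-0.82 ± 0.17), and Nfil3, a repressor gene of the DBP targets, fell from 63.6, 56.8 and 65.7 to 29.8, 22.4 and 25.7 (-1.23 ± 0.15). Npas2, whose product can take the place of CLOCK as the partner of BMAL1, rose from 0.89, 1.62 and 1.09 to 7.31, 5.8 and 6.18 (1.77 ± 0.24). The repressor genes Cry1 and Per2 fell by 0.84 and 0.68. Per1 was not called (-0.26 ± 0.19) but was lower after centring (-0.61), and Nr1d1, the gene of the repressor REV-ERB alpha, rose by 0.71 ± 0.17 but was not called after centring (0.33). With 2 times after PDGF and no untreated course, a clock phase cannot be told apart from time since PDGF.

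Genes of several other roles were among the 15 largest rises that met the rule for top genes. Ptprn, which encodes a receptor-like protein of secretory vesicles, rose from 11.3, 10.2 and 15.1 to 245, 217 and 233, the second-highest difference of these 15 (adjusted p = 3.3e-10). Slc29a1, a nucleoside transporter gene, was at 3.54, 2.77 and 3.86 and then at 55.7, 41.8 and 45.2 (adjusted p = 7.36e-10). Sfrp2, a gene of a secreted WNT modulator, rose by 3.43 ± 0.30, Cp, the ceruloplasmin gene, by 3.39 ± 0.23, and Fibin by 3.27 ± 0.18. Ly96, which encodes the MD-2 partner of the receptor TLR4, was at 19.9, 3.15 and 36.1 and then at 157, 148 and 131 (3.31 ± 0.78, adjusted p = 0.00222), and as with Pinlyp and Ctsk its lowest value was that of PDGF 2 h library 1.

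The labelled cell type and others were checked by markers. Of 8 smooth muscle markers, 6 fell and 1 rose, and their summed level was 10100 to 13500 normalised FPKM at 2 h and 1720 to 1960 at 24 h. The summed endothelial markers were at 46 to 65.4 at 2 h and 130 to 156 at 24 h, with 3 of 10 tested, 2 of them higher (Eng and Tek), and most of the sum was Eng. Pecam1 and Cdh5, which define endothelium, were at 0.129 or less in each of the 6 libraries. Leukocyte markers summed to 17 to 26.8 at 2 h and 50.7 to 73.6 at 24 h, nearly all of it Cd14, which rose from 15.2, 20.9 and 22.3 to 72.2, 52.6 and 48.9 (1.52 ± 0.21), while Cd68 fell (adjusted p = 0.0426) and Ptprc, which defines leukocytes, was at 0.111 or less. Adventitial fibroblast markers summed to 204 to 241 and 284 to 297, with 3 of 4 tested higher (Pdgfra, Pi16 and Serpinf1), and Dcn and Cd34 at 0.225 or less. Values near 0.1 are what the normalised table gives to an unnormalised 0 (0.0577 to 0.255 over the libraries), and 3 endothelial, 6 leukocyte and 3 fibroblast markers were at an unnormalised 0 in all 6 libraries. The part of such cells in the differences was not tested.

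The same 24 h against 2 h contrast in cells given JQ1 used other libraries. There 2940 genes were higher (29%) and 1761 lower (17.4%), with a median difference of 0.14. Of the genes lower with PDGF alone, 815 were also lower with JQ1, which is 68.3% of the first list and 46.3% of the second. For higher genes the number was 2242, which is 49.7% and 76.3%. The time difference itself differed between the 2 treatments in 2259 genes (22.3%), with 1771 above (17.5%) and 488 below (4.82%) the value in JQ1. After centring the numbers were 1734 above (17.4%) and 1254 below (12.6%). The title letters of the JQ1 samples differ from those of the others, and what those letters mark and JQ1 cannot be told apart.

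**Figure D4:**
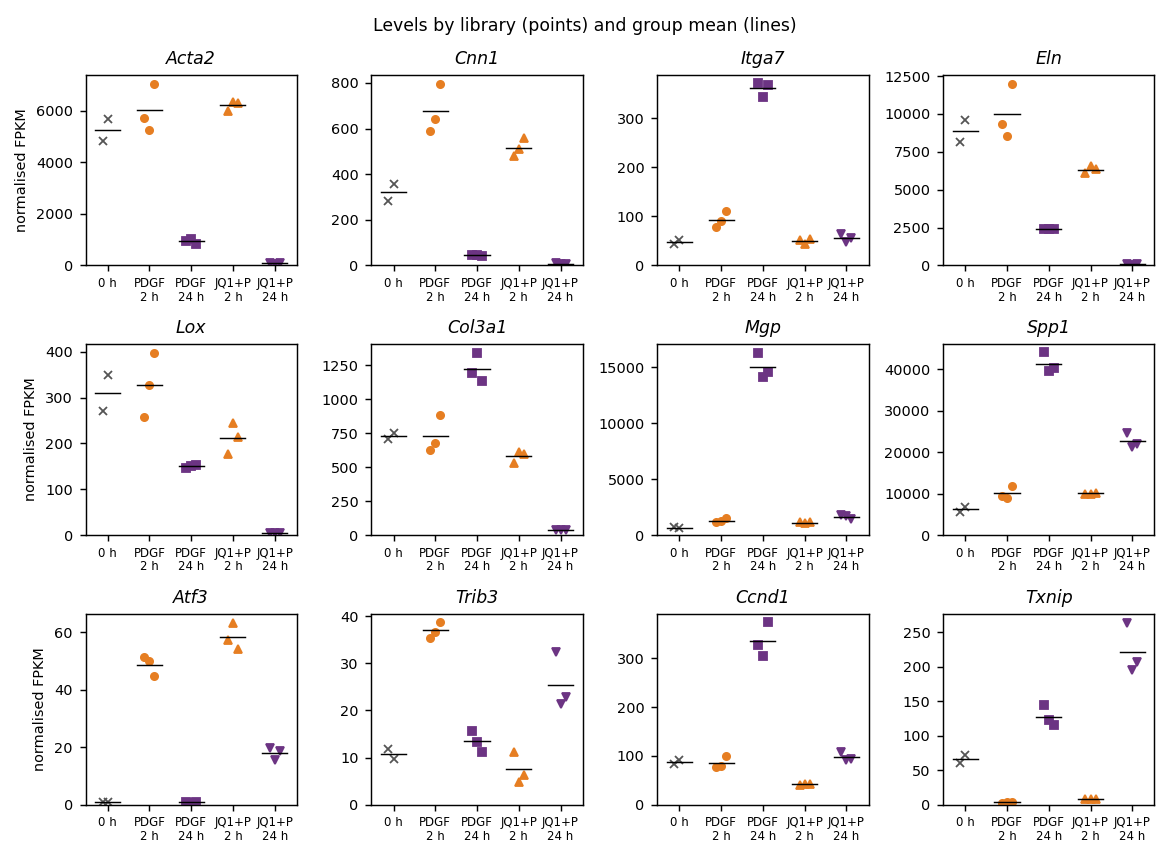
Normalised FPKM in every library of the 5 groups (points) with the group mean (lines) for 12 genes, each panel with its own linear axis; the groups on the x axis are unstimulated (0 h), PDGF at 2 h and 24 h, and JQ1 plus PDGF (JQ1+P) at 2 h and 24 h. Acta2, Eln, Lox and Col3a1 are close to 0 only in the JQ1 group at 24 h, while Txnip is low at 2 h and high at 24 h with and without JQ1.

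In 18 of the 27 contractile genes the time difference was above that with JQ1, and the other 9 were not called (19 above centred). Acta2 was at 5980, 6330 and 6290 with JQ1 at 2 h and at 110, 69.3 and 84.6 at 24 h, so its time difference was -6.15 ± 0.16 against -2.66 without JQ1 (difference 3.49 ± 0.23, adjusted p = 6.58e-08). Cnn1 showed -6.11 against -3.87. Not all contractile genes did so: for Actg2, a smooth muscle actin gene, the time difference was -2.52 with JQ1 and -2.78 without (adjusted p of the difference 0.592), and for Myh11 it was -1.40 and -1.03 (adjusted p of the difference 0.458). Of the 14 tested elastic fibre and basement membrane genes, 9 lay above the value with JQ1 and 5 were not called (12 above centred). Among the 5 was Mfap5, a microfibril gene, with -1.68 with JQ1 and -2.31 without. Itga7, which rose with PDGF alone, was at 52.6, 42.7 and 54.5 and then at 64.8, 48.3 and 55.6 with JQ1, a difference in time course of 1.79 ± 0.20. Mgp was at 1150, 1060 and 1130 and then at 1750, 1710 and 1470 with JQ1, 0.56 ± 0.13 against 3.56 (adjusted p of the difference 3.23e-08).

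For some genes the difference between the time courses did not pass. For Txnip the time difference was 4.65 ± 0.16 with JQ1 and 4.97 without (difference 0.32 ± 0.23, adjusted p = 0.343), for Ankh 3.17 and 3.69 (0.51 ± 0.23, adjusted p = 0.122), and for Npr3 -3.82 and -4.19 (-0.37 ± 0.22, adjusted p = 0.249), although that of Npr3 was called after centring (-0.45, adjusted p = 0.0443). Levels could still differ: Ankh was at 72.2, 61.5 and 59.9 with JQ1 at 24 h and at 336, 244 and 330 without. Of 29 immediate early transcription factor genes, 15 had a time difference below that with JQ1 and 4 above (19 and 4 centred). The other 10, among them Egr3 (adjusted p of the difference 0.254), were not called. In the ribosome biogenesis list, 20 of 31 lay below and 0 above (26 and 0 centred). Among 27 genes of the integrated stress response and amino acid supply, 15 lay below and 2 above (16 and 2 centred). The early genes Nr4a3 and Noct, the nocturnin gene, fell less with JQ1 (-4.29 and -3.08), by a difference of -1.03 ± 0.27 and -2.07 ± 0.28. Both were lower with JQ1 already at 2 h. Nr4a3 was then at 53, 73.6 and 66.4 with JQ1 against 142, 167 and 179 without. Noct was at 50.6, 54.8 and 53.1 against 109, 135 and 123. At 24 h Nr4a3 was at 2.47, 1.84 and 2.72 with JQ1 against 4.1, 2.18 and 3.2, and Noct at 5.32, 5.12 and 5.61 against 3.63, 1.96 and 1.98. Hexim1, which encodes an inhibitor of the elongation kinase P-TEFb, rose from 18.3, 27.2 and 22.7 to 65.5, 55 and 56.9 with PDGF alone (1.35 ± 0.13) and from 92.8, 99.4 and 103 to 189, 164 and 162 with JQ1 (0.79 ± 0.13). Its difference between the time courses was 0.56 ± 0.19 and passed (adjusted p = 0.0425).

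**Figure D5:**
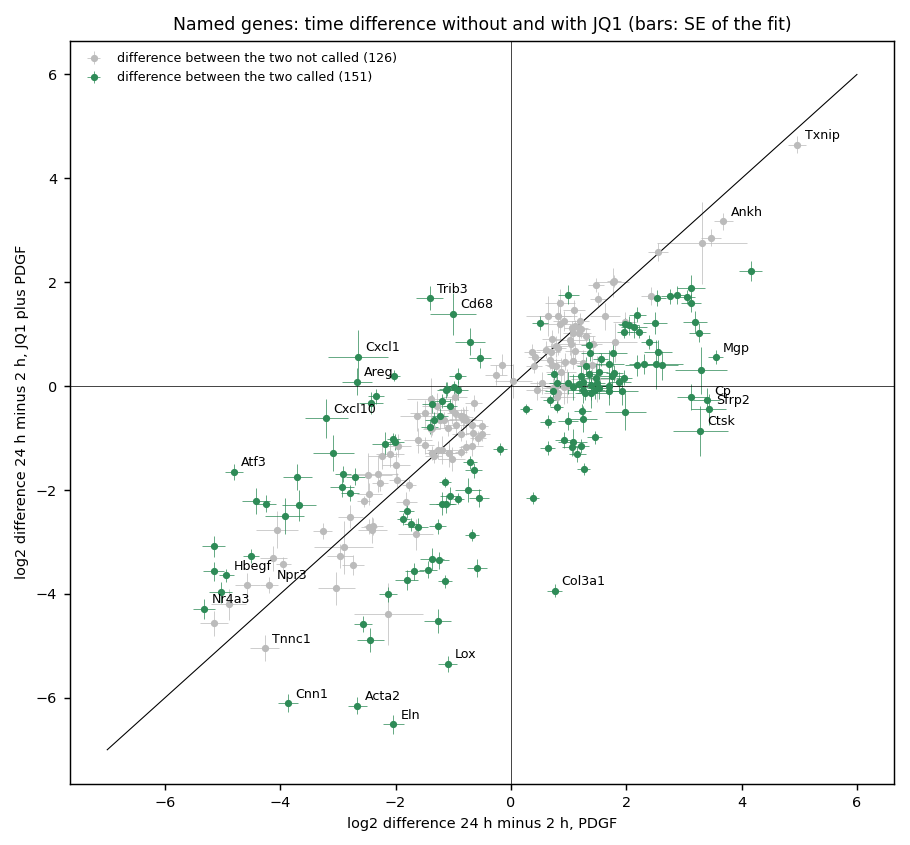
Each point is 1 of 277 named genes, with the log2 difference 24 h minus 2 h under PDGF on the x axis and under JQ1 plus PDGF on the y axis, bars showing the SE of the fit and the line marking equal differences; green genes (151) had a called difference between the 2 time courses and grey genes (126) did not. Txnip, Ankh and Npr3 lie near the line, Eln, Lox, Acta2 and Col3a1 far below it, and Trib3, Cxcl1 and Areg above it.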

How the data were processed

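Polyadenylated RNA of cultured rat aortic smooth muscle cells was sequenced with a stranded kit as single-end reads, per the labels' protocols, with ERCC spike-ins dosed, per the labels, by the RNA of a set number of cells. The authors deposited 2 tables of 17404 features in 14 libraries, 1 of unnormalised FPKM and 1 of normalised FPKM. HISAT, Cufflinks 2.0.0 and build rn6 are named in the submitters' processing notes. The annotation and the normalisation method are not given in the sources used here. From the values, normalisation acted as 1 curve per library, under which spike-ins lay closer together, and an unnormalised 0 became 0.0577 to 0.255.

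Column names gave the groups, and 0 columns had no group. They end in digits that could not be tied to the letters of the sample titles. Genes at 1 normalised FPKM or more in at least 2 libraries were tested (10133 genes) on the log2 of normalised FPKM plus 1. R 4.3.3 and limma 3.58.1 fitted 1 model over the 5 groups, with 9 residual degrees of freedom, moderated by empirical Bayes with a trend on the mean. Spike-ins were left out. A count model does not suit FPKM and none was used. Depth is unknown, and no interval from depth is given; the number of libraries limits the precision. The code was tested on simulated data.

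The 40 gene lists (812 genes, 27 without a feature of that symbol and not analysed here) and the members were chosen with earlier results of these data known. Named genes were, in each direction, the 15 largest differences among called genes with separate ranges that kept the call after centring and were not microRNA, ribosomal protein or unnamed loci; up to 4 called members of each list and direction; and a set of genes chosen for their roles. A few more list members were named after their values were seen, and a few genes that met the rule are not reported here. No difference was tested over a list. Alternatives were other scales, pseudocounts, filters, fits and left-out libraries. No coordinates of build rn6 are printed; promoter sequences and coordinates are those of RefSeq on GRCr8, matched by symbol.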

Additional observations from a re-analysis of the deposited data

Results flagged for a closer look

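For 12 genes the difference between 24 h and 2 h of PDGF is set here against the same difference with JQ1. They are the 6 furthest above 0 and the 6 furthest below 0 among the named genes that passed the limma test of the difference itself. Genes such as Acta2 (3.49) stood further from 0 than some listed below 0. The values are log2, PDGF alone minus JQ1 plus PDGF.

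Among the differences above 0 were those of the matrix genes Col3a1, Eln and Lox. Col3a1 rose by 0.76 with PDGF alone but went from 529, 612 and 594 to 37.6, 35.3 and 37.3 normalised FPKM with JQ1, a difference between the time courses of 4.69 (adjusted p = 3.73e-10). Eln fell to 83.3, 49.1 and 77.7 with JQ1 at 24 h, against 2430, 2380 and 2380 without, and differed by 4.47. Lox fell to 3.63, 4.31 and 4.64, against 147, 151 and 153, and differed by 4.25. Ctsk differed by 4.14, Sfrp2 by 3.88 and Cp by 3.67; these 3 rose with PDGF alone and had no call over time with JQ1 (adjusted p = 0.162, 0.247 and 0.354).

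Below 0 stood genes that fell with PDGF alone. Cxcl1, a neutrophil chemokine gene, differed by -3.21 and its level with JQ1 at 2 h was already scattered, at 0.0674, 5.49 and 1.66. Atf3 differed by -3.15, with 19.6, 15.6 and 18.8 left at 24 h with JQ1 against 0.965, 0.492 and 0.921 without. Trib3, which encodes a pseudokinase of the stress response, differed by -3.10, since it fell with PDGF alone and rose from 11.2, 4.88 and 6.37 to 32.4, 21.3 and 22.8 with JQ1. The remaining differences were -2.76 for Areg, -2.58 for Cxcl10 and -2.39 for Cd68. Cd68 was at 0.906, 5.04 and 1.86 and then 0.213, 0.737 and 0.949 with PDGF alone, and rose from 2.46, 1.66 and 2.11 to 13, 4.16 and 6.19 with JQ1 (1.39, adjusted p = 0.0094). Its fall with PDGF alone was not called without PDGF 2 h library 1 and PDGF 24 h library 0 (adjusted p = 0.452).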

How the results depend on the processing

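The direction of the median and of the named genes' calls held in most settings, but the split into higher and lower genes followed the scale. On the median-centred scale 2726 genes were higher and 2543 lower with a median of 0.06, and with the unnormalised FPKM as deposited 2694, 2563 and 0.05. A log2 difference of at least 1 left 1789 higher, 526 lower and 1310 genes that differed between the time courses. The median was 0.45 with a pseudocount of 0.1, 0.28 with 5 and 0.22 with no filter on low values. Leaving out 1 library at a time gave 3795 to 4699 higher genes, 998 to 1355 lower, medians of 0.32 to 0.44 and 1846 to 2571 genes that differed between the time courses. The direction reversed for Pno1 (-0.01 centred and -0.02 as deposited) and Serpinf1 (-0.01 as deposited), both close to 0. Of 274 named genes compared, 253 kept direction and side of the threshold after centring, and of 273 without both doubted libraries 260 did. The cause of these shifts was not tested. The fit of the 6 PDGF libraries alone gives no value for the JQ1 contrast. No paired analysis was possible because the columns end in digits while the titles carry letters, so no column has a replicate letter. With depth unknown, low values carry no interval.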
